A study of Mus musculus with 8 samples.

Results

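The genes described here encode the eukaryotic translation initiation factors, together with the kinases that phosphorylate eIF2 and the proteins that bind eIF4E. They were chosen by name, as every probe set whose annotated symbol begins with Eif1, Eif2, Eif3, Eif4, Eif5 or Eif6. That choice was made with earlier results of these data known. The name rule took 139 of the 45037 probe sets on the array, of which 133 carried 1 gene symbol and 6 carried several. The 133 probe sets named 47 genes, and 46 of these were bright enough to be tested among 11525 genes in all. Eif4a3 was the remaining gene: its own probe set was at a mean signal of 2.54 at 37 °C and 5.31 at 31.5 °C, under the lowest level kept for testing.

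Initiation brings a ribosome to the start codon of a messenger RNA. The small subunit is prepared by eIF1, eIF1A, eIF3 and eIF5 and receives the initiator tRNA from eIF2 in its GTP form, which the exchange factor eIF2B restores after each round. The capped messenger is opened and presented by eIF4E, the scaffold eIF4G and the helicase eIF4A, while eIF4E-binding proteins hold eIF4E back when mTORC1 is inactive and eIF2α kinases slow the exchange step under stress. In oligodendrocyte precursors, the dividing cells that later make myelin, eIF2B is of medical interest because mutations in any of its subunits cause a childhood white matter disease.

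RNA was measured on 8 Affymetrix mouse arrays, 4 of cells cooled to 31.5 °C and 4 of cells held at 37 °C. Both groups came from cerebral hemispheres of 15-day ICR mouse embryos, grown as mixed primary cultures for 5 days in D-MEM with 10% FBS and then moved without serum to a basal medium for 48 hr at the stated temperature. No genetic change or drug was used, and the comparison asks what mild cooling did to the RNA of these precursors. The labels give a group size of 3 mice and leave unstated if the 4 arrays at each temperature are separate cultures, so p-values measure the spread between these arrays, which may be technical.

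All values below are array signals after each array was scaled to a common trimmed mean. Means are given ± SD over the 4 arrays of a temperature, and a change is the log2 signal at 31.5 °C minus that at 37 °C, with its SE from limma. A gene was counted as higher or lower when its limma p-value, adjusted by the Benjamini-Hochberg method over all 11525 genes, was under 0.05. Arrays carrying the same replicate number at the 2 temperatures varied together (r of 0.422 to 0.614 across genes), so the numbers pair the arrays, and the fit with that number as a replicate block is given where it changed a call. Signals of different probe sets are not on a common scale, and no gene's level is set against another's.

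The cultures carried the precursor markers, and the myelin genes differed by temperature. All 7 markers of oligodendrocyte precursors were above the filter: Pdgfra rose (change 0.45, adjusted p = 0.0373), Gpr17, a marker of precursors about to differentiate, fell (change -0.84, adjusted p = 0.0024), and the other 5, Olig1 at 6727 against 6752 among them, did not pass. With the block Ptprz1 was lower too (change -0.23, adjusted p = 0.0438). Of 5 tested oligodendrocyte markers 5 fell at 31.5 °C, and the summed signal of that list ran from 8250 to 11964 at 31.5 °C against 16660 to 20761 at 37 °C. Astrocyte markers summed to 7185 to 12823 against 9734 to 17752, with 1 of 6 lower (S100b), and 0 of 6 microglial, 1 of 6 neuronal (Gap43, lower), 0 of 4 progenitor, 0 of 3 endothelial and pericyte and 0 of 4 fibroblast markers passed the test. With the replicate block more passed: 5 of 6 astrocyte (S100b, Gfap, Aqp4, Aldh1l1 and Gja1), 2 microglial (C1qa and C1qb), 3 neuronal (Gap43, Rbfox3 and Tubb3) and 2 fibroblast markers (Col1a1 and Lum) were lower. The same fit had the progenitor marker Pax6 and the pericyte marker Rgs5 higher and the endothelial marker Kdr lower. The endothelial markers Pecam1 and Cdh5 were near background. In bulk cultures fewer cells of a type and less RNA per cell cannot be told apart, and the part of these marker shifts in any result below was not tested. Log2 ratios of 3′ to 5′ actin signal, a sign of RNA quality, were 1.21 ± 0.0415 at 31.5 °C and 1.24 ± 0.0431 at 37 °C (exact permutation test, two-sided p = 0.429).

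The sequences upstream of 4 genes are shown first: Eif4a2, which fell, its paralogue Eif4a1, which did not pass the test, and Eif5a2 and Eif1ad, which rose. The ratio of Eif4a2 to Eif4a1 is tested further on and did not pass after adjustment. Each run below is the 250 bases before the RefSeq start of the gene (GRCm38.p6), written 5′ to 3′ on the gene's own strand. They are Eif4a2 at chr16:23107218-23107467 (+), Eif4a1 at chr11:69672424-69672673 (-), Eif5a2 at chr3:28781027-28781276 (+) and Eif1ad at chr19:5366563-5366812 (+). Capitals mark matches on either strand to the E-box CACGTG, the CCAAT box, the GC box GGGCGG, the NRF2 element core TGACNNNGC and the heat shock element core GAANNTTC.
Eif4a2: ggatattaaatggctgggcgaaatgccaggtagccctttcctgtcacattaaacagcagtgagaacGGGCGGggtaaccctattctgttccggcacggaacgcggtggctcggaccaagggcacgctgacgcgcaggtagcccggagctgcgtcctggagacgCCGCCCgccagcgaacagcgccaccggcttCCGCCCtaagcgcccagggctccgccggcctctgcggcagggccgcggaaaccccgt
Eif4a1: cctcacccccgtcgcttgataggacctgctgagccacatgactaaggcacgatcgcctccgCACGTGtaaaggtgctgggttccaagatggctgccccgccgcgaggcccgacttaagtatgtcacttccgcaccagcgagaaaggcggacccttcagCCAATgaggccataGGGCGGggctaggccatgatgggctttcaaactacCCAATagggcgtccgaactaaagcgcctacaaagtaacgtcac
Eif5a2: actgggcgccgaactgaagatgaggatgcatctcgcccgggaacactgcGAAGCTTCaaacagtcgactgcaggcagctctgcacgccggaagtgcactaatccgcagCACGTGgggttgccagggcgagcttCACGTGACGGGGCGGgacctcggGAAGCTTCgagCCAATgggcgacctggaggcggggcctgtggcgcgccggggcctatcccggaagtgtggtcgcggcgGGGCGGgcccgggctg
Eif1ad: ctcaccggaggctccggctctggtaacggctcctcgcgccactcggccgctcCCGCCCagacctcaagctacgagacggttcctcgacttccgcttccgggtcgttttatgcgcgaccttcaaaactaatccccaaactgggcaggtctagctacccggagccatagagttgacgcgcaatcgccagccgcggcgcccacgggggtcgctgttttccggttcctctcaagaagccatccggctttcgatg

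The helicase pair differed in these letters: the Eif4a2 window held 3 GC boxes and no other match, and the Eif4a1 window held 1 E-box, 2 CCAAT boxes and 1 GC box. The Eif5a2 window held 2 E-boxes, 1 CCAAT box, 2 GC boxes, 1 NRF2 element core and 2 heat shock element cores, and the NRF2 core overlapped an E-box and a GC box. The Eif1ad window held 1 GC box. RefSeq promoter windows were matched to 37 of the 46 tested genes, 50 windows in all. The E-box was in 20% of these windows against 6.02% of all 32851 windows, and the GC box in 66% against 32.7%. The CCAAT box was in 26% against 33.8%, the NRF2 core in 12% against 10.2% and the heat shock core in 10% against 6.69%. The 8 genes with an E-box had a median change of 0.08 and the other genes with a window 0.19. This gap was not particular to the E-box. Medians with and without a match were 0.10 and 0.19 for the CCAAT box and 0.04 and 0.14 for the heat shock core. They were 0.11 and 0.15 for the GC box and 0.11 and 0.10 for the NRF2 core. None of these differences was tested. A match is a string of letters, not a shown binding site.

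In the fit without the replicate block, which leaves the pairing of the arrays out, 4 of the 46 tested genes rose at 31.5 °C. In that fit 1 gene fell and 41 did not pass. The genes that rose were Eif1ad, Eif2b3, Eif5a2 and Eif3m, and the gene that fell was Eif4a2. These 5 are 10.9% of the tested factors, against 15.4% of all tested genes called in either direction (7.64% higher and 7.77% lower). In this fit the share called is thus no larger than the background. That comparison depends on the setting and on which genes make up the background. Without the filter 8 of 47 factors rose and 1 fell, against 8.28% of all 18193 genes called. Those 18193 include the dim genes that the filter leaves out. With a filter at the 70th percentile 7 of 43 factors rose and 1 fell, against 19.9% of 8022 genes called. With the replicate block, which keeps the pairing, 12 rose and 1 fell, 28.3% against 30.8% of all genes. When pair 1, 2, 3 or 4 was left out of the blocked fit, 5, 7, 5 and 6 factors were higher. Calls among all genes dropped too, from 3548 to 2060, 2113, 2299 and 2453, or 17.9% to 21.3% of those tested. The loss of calls was thus not particular to the factors. Eif3b, Eif3e, Eif4g3, Eif5 and Eif6 lost their blocked call whichever pair was left out. When the arrays were left unscaled, Eif1ad, Eif2b3, Eif5a2, Eif3m and Eif4a2 all lost their calls (limma adjusted p from 0.0837 to 0.766). Eif2s3y alone passed there. No factor changed 2-fold. The median size of a change, sign aside, was 0.179 for the factors and 0.182 for all genes.

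The direction of the changes was uneven. Of 46 genes 37 had a positive change and 9 a negative change, 80.4% positive against 49.7% of all tested genes. The median change was 0.12 against 0.00 for all genes (-0.0017), and within the 4 pairs of arrays the factors' medians were 0.12, 0.17, 0.17 and 0.10. In 23 genes (50% against 25.3% of all genes) the 31.5 °C array was the higher in all 4 pairs. In 5 genes it was the lower in all 4, a count for which no share of all genes was taken. The 2 temperatures did not overlap in 10 genes with 31.5 °C above (21.7% of the factors, 11.7% of all genes) and in 2 with 31.5 °C below, Eif1b and Eif4a2 (10.5% of all genes). Among the 1933 tested genes with a mean signal of 1000 and above, 55.4% had a positive change with a median of 0.03, while 22 of the 26 factors in that range were positive with a median of 0.12. The genes share arrays, scaling and often a protein complex, and these counts are a description. With each array scaled to its median, the median of all genes moved to 0.09 and that of the factors to 0.21.

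**Figure D1:**
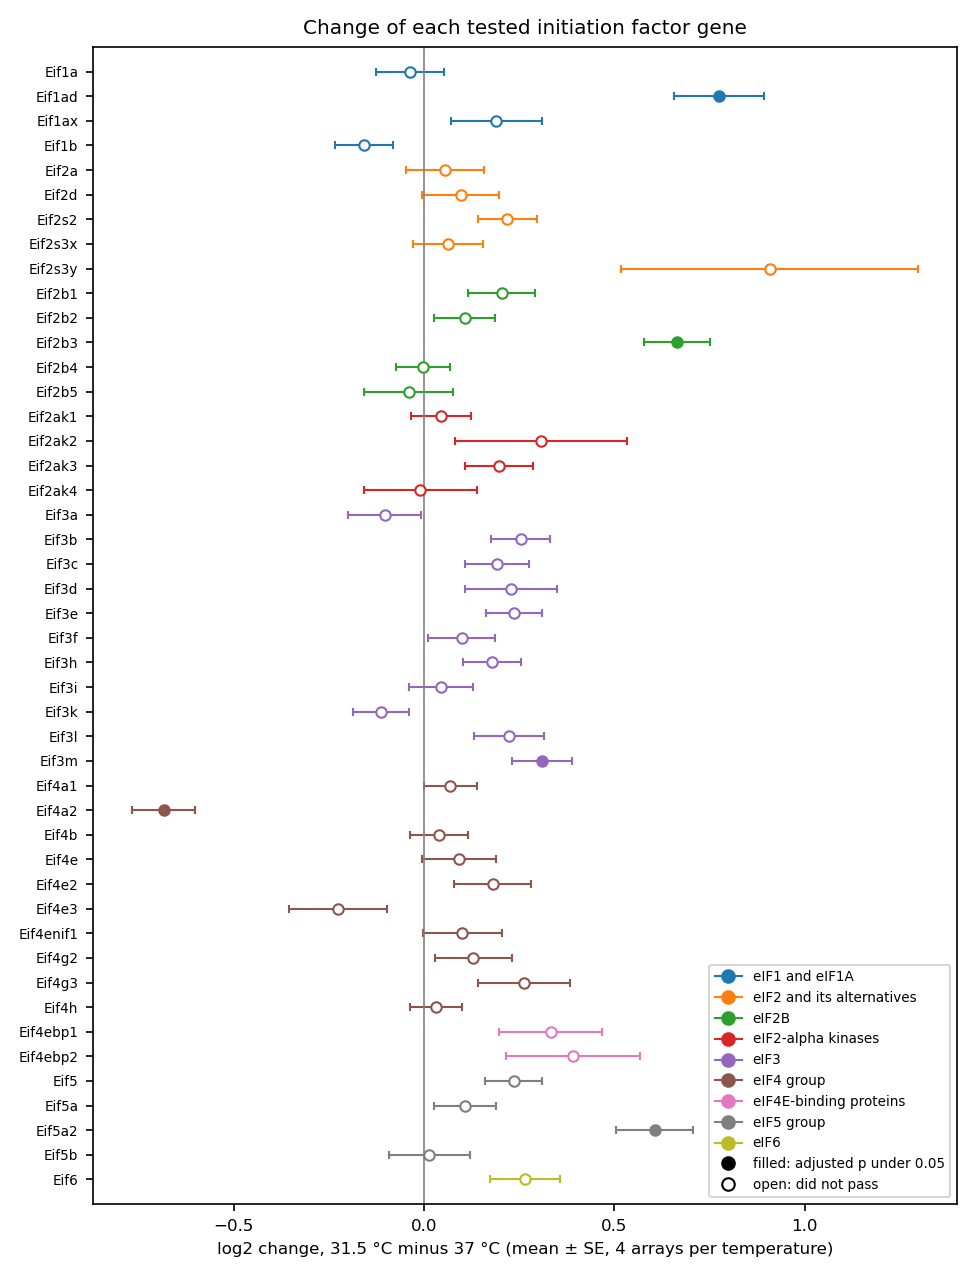
Log2 change (31.5 °C minus 37 °C, mean ± SE, 4 arrays per temperature) of the 46 tested genes, ordered and coloured by factor number, with filled points for adjusted p under 0.05. Most points lie to the right of 0, and the filled points are Eif1ad, Eif2b3, Eif5a2 and Eif3m on the right and Eif4a2 on the left.

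Among the genes named for eIF1 and eIF1A, Eif1ad was the gene that rose. It encodes a nuclear protein with an eIF1A-like domain. Its signals were 682, 643, 731 and 610 on the 31.5 °C arrays (replicates 1 to 4) and 400, 356, 474 and 339 on the 37 °C arrays. Every 31.5 °C array was above every 37 °C array, and replicate 3 was the highest at both temperatures. The mean went from 392 ± 60.0 to 666 ± 52.4, a 1.71-fold rise (change 0.77, SE 0.12, adjusted p = 0.0055 by limma). A dimmer probe set of Eif1ad pointed the other way, at 188 ± 46.5 against 241 ± 56.6 (change -0.36, adjusted p = 0.319), and the mean of both gave 0.21 with an adjusted p of 0.384.

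The other 3 genes of this group did not pass on their brightest probe sets. Eif1ax encodes eIF1A, which helps the small subunit scan, and stood at 2185 ± 189 against 1925 ± 265 (change 0.19, adjusted p = 0.322). Eif1a, its autosomal copy, stood at 477 ± 47.4 against 488 ± 10.4. Eif1b, a close copy of the start codon gatekeeper eIF1, read 2130, 2118, 1983 and 2142 at 31.5 °C against 2426, 2484, 2188 and 2253 at 37 °C. The Eif1b groups did not overlap, with 31.5 °C below, yet the change of -0.16 gave an adjusted p of 0.198. Eif1 itself was not analysed here.

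No subunit of eIF2 passed without the block. Eif2s2, the β subunit, which docks eIF5 and eIF2B, read 4041, 4514, 4222 and 4071 at 31.5 °C and 3435, 3531, 3855 and 3658 at 37 °C. All 4 cool arrays were above all 4 warm ones, with a change of 0.22 ± 0.08 (SE) and an adjusted p of 0.0901. Eif2s3x, the X-linked γ subunit that binds GTP and the initiator tRNA, was at 3375 ± 320 and 3225 ± 200 (change 0.06, adjusted p = 0.693). The alternative tRNA carriers Eif2a and Eif2d had changes of 0.05 and 0.10. The α subunit gene Eif2s1 was not analysed here.

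Eif2s3y, the Y-linked copy of the γ subunit, had the largest SE of the 46 tested factors. Its signals were 189, 430, 433 and 238 at 31.5 °C and 93.3, 289, 198 and 127 at 37 °C, so the groups overlapped, but each cool array was above the warm array of its number. The change was 0.91 ± 0.39 (SE), with pair values of 1.01, 0.58, 1.13 and 0.91. Without the block it did not pass (adjusted p = 0.150), and with the replicate block it did (adjusted p = 0.00301). The array also measured 2 other Y-linked genes and Xist, whose levels follow the share of male and female embryos in a culture. Kdm5d had a change of -0.36 and was lower on the cool array in 4 of 4 pairs (adjusted p = 0.0384 with the block and 0.409 without). Uty had a change of 0.04 and Xist 0.06, and neither passed with the block (adjusted p = 0.831 and 0.658). Of the 3 Y-linked genes measured, Eif2s3y was the one higher on the cool array in every pair, while replicates 2 and 3 lay above 1 and 4 at both temperatures in all 3.

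**Figure D2:**
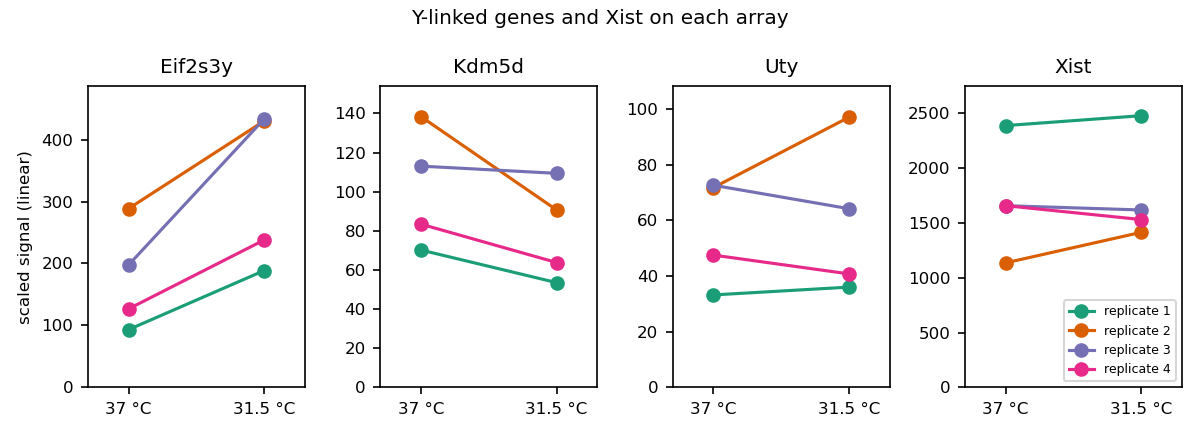
Scaled signal (linear axis from 0) of the Y-linked genes Eif2s3y, Kdm5d and Uty and of Xist on each array, with arrays of the same replicate number joined. All 4 lines of Eif2s3y go up from 37 °C to 31.5 °C, all 4 of Kdm5d go down, and replicates 2 and 3 lie above 1 and 4 in the 3 Y-linked genes.

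Of the 5 subunits of eIF2B, the exchange factor of eIF2, Eif2b3 rose and the other 4 did not pass. Eif2b3 encodes the γ subunit, part of the catalytic arm. It read 380, 421, 411 and 358 at 31.5 °C and 253, 258, 256 and 224 at 37 °C, with no overlap and with replicate 4 lowest at both temperatures. The mean went from 248 ± 15.8 to 393 ± 29.1, a 1.58-fold rise (change 0.66, SE 0.09, adjusted p = 0.0033), and the 4 pair changes lay between 0.59 and 0.71.

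The catalytic ε subunit gene, Eif2b5, read 615, 700, 605 and 516 at 31.5 °C and 640, 714, 590 and 557 at 37 °C (change -0.04, adjusted p = 0.851). The regulatory subunits, which sense phosphorylated eIF2, had changes of 0.20 for Eif2b1 (α), 0.11 for Eif2b2 (β) and 0.00 for Eif2b4 (δ, -0.0037). Eif2b1 was higher on the cool array in 4 of 4 pairs, at 493 ± 29.5 against 428 ± 33.8, with an adjusted p of 0.151, or 0.0542 with the block. Whether Eif2b3 differed from the other subunits was not tested.

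None of the 4 eIF2α kinases passed on its brightest probe set, with or without the block. Eif2ak3, or PERK, which responds to unfolded protein in the endoplasmic reticulum, read 570, 593, 541 and 525 at 31.5 °C and 438, 537, 504 and 469 at 37 °C (change 0.20, adjusted p = 0.169). Its cool array was the higher in each pair, and the groups overlapped at a single place, between replicate 2 at 37 °C and replicate 4 at 31.5 °C. Eif2ak2, or PKR, the kinase of double-stranded RNA, was at 157 ± 10.9 and 133 ± 46.2 (change 0.31, SE 0.23), with pair changes from -0.16 to 0.76. Eif2ak1, or HRI, the haem-regulated kinase, was at 336 ± 18.5 and 326 ± 17.5, and Eif2ak4, or GCN2, the sensor of uncharged tRNA, was at 120 ± 21.8 and 121 ± 17.0.

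The subunits of eIF3, the large scaffold on the small ribosomal subunit, leaned the same way. Of 11 tested genes 9 had a positive change, against 49.7% of all tested genes and 55.4% of those with a mean signal of 1000 and above. The median was 0.19, and 7 of the 11 were higher on the cool array in all 4 pairs, against 25.3% of all genes. Without the block only Eif3m passed, at 1259, 1274, 1317 and 1143 on the 31.5 °C arrays and 1048, 1004, 1036 and 940 on the 37 °C arrays. Its groups did not overlap, and the mean went from 1007 ± 48.3 to 1248 ± 74.1, a 1.24-fold rise (change 0.31, SE 0.08, adjusted p = 0.0328). This call was lost when any single array except replicate 4 at 31.5 °C was left out, with adjusted p from 0.0521 to 0.0945.

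Other subunits lay close behind Eif3m. Eif3b, an RNA-binding core subunit, read 1336, 1371, 1467 and 1327 at 31.5 °C and 1114, 1170, 1240 and 1091 at 37 °C. Its groups did not overlap, and its change of 0.25 ± 0.08 (SE) gave an adjusted p of 0.0583, or 0.0231 with the replicate block. Eif3e, a subunit of the octamer, read 4852, 5163, 4846 and 4634 against 4102, 3956, 4172 and 4318, again without overlap. Its change of 0.24 ± 0.07 (SE) gave an adjusted p of 0.0600, or 0.0489 with the block. Eif3h was also without overlap, at 3729 ± 237 against 3290 ± 53.5 (change 0.18, adjusted p = 0.144).

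The remaining eIF3 genes did not pass under either fit on their brightest probe sets. A dimmer probe set of Eif3c, at 3813 ± 385 against 3180 ± 246, passed with the block (change 0.26, adjusted p = 0.0347, or 0.134 without). Eif3c and Eif3d, the latter able to bind the cap itself, had changes of 0.19 and 0.23, and Eif3l, Eif3f and Eif3i had 0.22, 0.10 and 0.04. The replicate 4 arrays differed least: the median of the 11 genes was 0.22, 0.29 and 0.20 in pairs 1 to 3 and 0.03 in pair 4. The largest subunit, Eif3a, was at 2598 ± 162 against 2798 ± 279 (change -0.10, adjusted p = 0.511), and Eif3k was at 1502 ± 78.4 against 1623 ± 45.9 (change -0.11, adjusted p = 0.341). Eif3g was not analysed here.

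**Figure D3:**
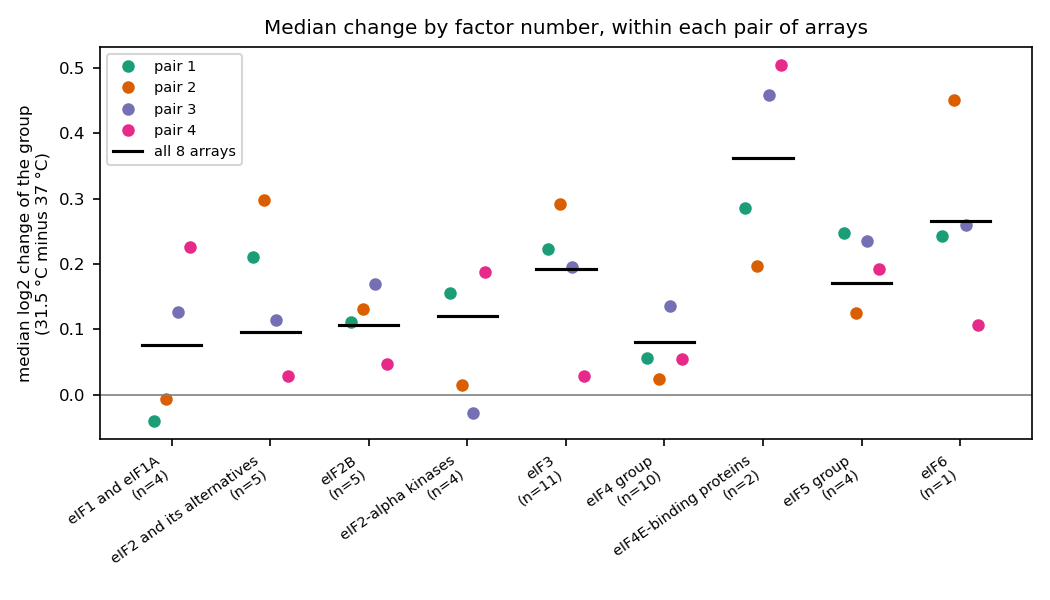
Median log2 change (31.5 °C minus 37 °C) of the tested genes of each factor group, as points for the 4 pairs of same-numbered arrays and as a bar for all 8 arrays, with the number of genes under each name. The eIF3 points are 0.22, 0.29, 0.20 and 0.03, and the eIF4E-binding proteins have the highest bar at 0.36 from 2 genes. Each gene is taken at its brightest probe set.

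In the cap-binding group the helicase gene Eif4a2 fell, and none of the other 9 tested genes passed without the block. Eif4a2 encodes eIF4A2, a DEAD-box helicase closely related to eIF4A1. It read 3036, 3312, 3416 and 3127 at 31.5 °C and 5365, 5386, 5307 and 4669 at 37 °C. Even the lowest warm array, replicate 4, was above every cool array. The mean went from 5182 ± 343 to 3223 ± 173, so that the 37 °C signal was 1.61 times the 31.5 °C signal (change -0.68, SE 0.08, adjusted p = 0.0025), and pair changes ran from -0.82 to -0.58. The call held in 24 of 25 other settings tried.

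Eif4a1, the main helicase of growing cells, read 6103, 5952, 6102 and 5814 at 31.5 °C and 5892, 5743, 5449 and 5773 at 37 °C (change 0.07, adjusted p = 0.546). The ratio of Eif4a2 to Eif4a1 within an array was compared as 1 of 8 paralogue ratios. On the log2 scale it was lower at 31.5 °C by 0.75, from -0.14 ± 0.12 to -0.90 ± 0.08, and lower in 4 of 4 pairs. The exact permutation test gave a two-sided p of 0.0286, the smallest that 4 against 4 arrays allow, and 0.114 after adjustment over the 8 ratios.

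**Figure D4:**
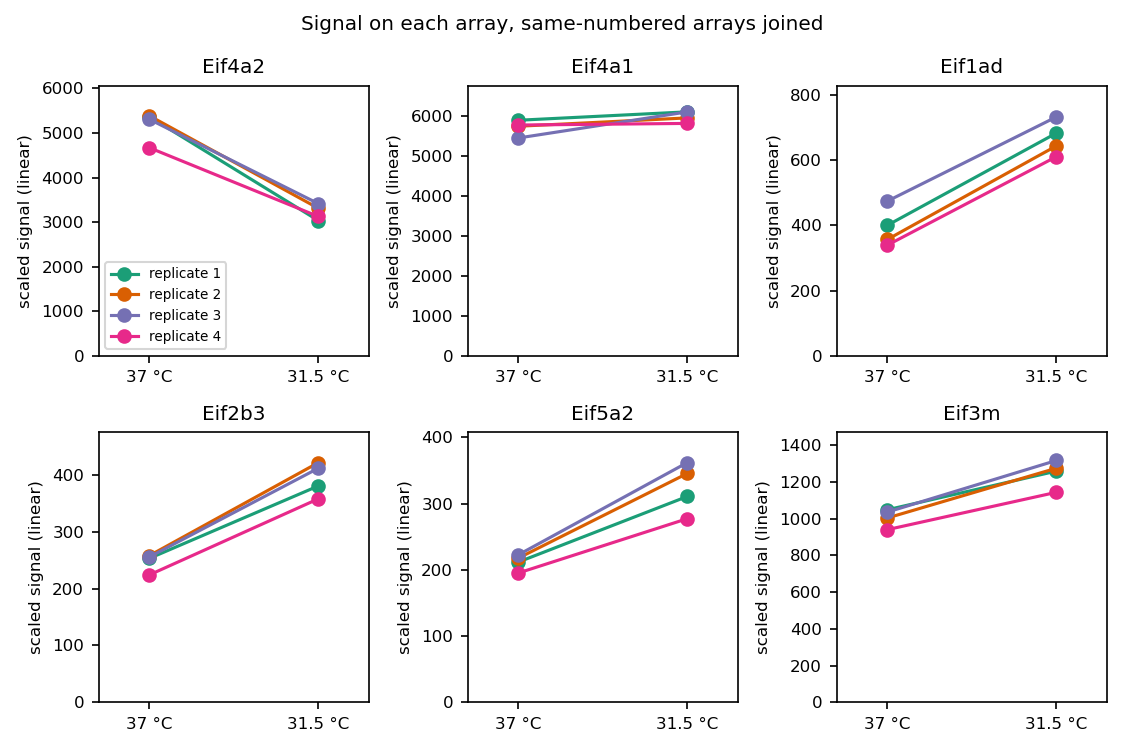
Scaled signal (linear axes from 0) on each array for Eif4a2, Eif4a1, Eif1ad, Eif2b3, Eif5a2 and Eif3m, with arrays of the same replicate number joined. The Eif4a2 lines go down from about 5182 to about 3223 on average, the Eif4a1 lines are nearly level, and in the other 4 panels all arrays at 31.5 °C lie above all arrays at 37 °C.

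The cap-binding proteins themselves showed no call. Eif4e read 2596, 2763, 2655 and 2313 at 31.5 °C and 2735, 2400, 2405 and 2160 at 37 °C (change 0.09, adjusted p = 0.565). Eif4e2, a cap-binding relative linked to repression, had a change of 0.18, and Eif4e3 had -0.23 at a low signal (102 ± 16.5 against 118 ± 9.87). The ratios of Eif4e2 and Eif4e3 to Eif4e changed by 0.09 and -0.32 (exact permutation p = 0.343 and 0.143). Of the scaffolds, Eif4g1 was not analysed here, and Eif4g3 was at 1095 ± 137 against 911 ± 107, higher on the cool array in 4 of 4 pairs (change 0.26, adjusted p = 0.176, or 0.0416 with the replicate block). Eif4g2, or DAP5, which drives initiation without eIF4E, was at 7779 ± 901 against 7087 ± 450. The helicase helpers Eif4b and Eif4h had changes of 0.04 and 0.03, and the eIF4E transporter Eif4enif1 had 0.10.

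The eIF4E-binding proteins, the repressors that mTORC1 switches off, had the highest group median at 0.36 on the brightest probe sets. It came from 2 genes that passed only with the block. Eif4ebp1 read 472, 456, 598 and 639 at 31.5 °C and 390, 386, 491 and 444 at 37 °C. The groups overlapped, because replicates 3 and 4 were higher than replicates 1 and 2 at both temperatures, yet the cool array was higher in every pair. The change was 0.33 ± 0.14 (SE), with an adjusted p of 0.134, or 0.0201 with the replicate block. Other tested probe sets of Eif4ebp1 had changes of 0.30 and, at a low signal, -0.18. The mean of its probe sets gave 0.15 (limma adjusted p = 0.492). Eif4ebp2 read 421, 457, 562 and 693 against 343, 411, 362 and 496 (change 0.39, SE 0.18, adjusted p = 0.166, or 0.0247 with the block). The 4 tested probe sets of Eif4ebp2 disagreed: the other 3 had changes of -0.09, -0.31 and -0.19, the middle one called lower with the block (adjusted p = 0.0411). The mean of all its probe sets, with 1 too dim to be tested among them, gave -0.03. The ratio of Eif4ebp1 to Eif4e changed by 0.24 (exact permutation p = 0.286), and that of Eif4ebp2 to Eif4ebp1 by 0.06 (p = 0.714, exact). Eif4ebp3 shares its probe set with Ankhd1, and that probe set was at 249 ± 23.6 against 226 ± 28.4 (change 0.14, adjusted p = 0.472).

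In the eIF5 group Eif5a2 rose. Eif5a2 encodes an isoform of eIF5A, the hypusine-bearing factor that helps ribosomes through difficult peptide bonds. It read 311, 346, 362 and 277 at 31.5 °C and 212, 218, 223 and 195 at 37 °C. No arrays overlapped, and replicate 4 was lowest at both temperatures. The mean went from 212 ± 12 to 324 ± 37.7, a 1.52-fold rise (change 0.61, SE 0.10, adjusted p = 0.0073). The more widely used Eif5a was at 8368 ± 594 against 7761 ± 358 (change 0.11, adjusted p = 0.414). The log2 ratio of Eif5a2 to Eif5a was higher by 0.50 at 31.5 °C, in 4 of 4 pairs (exact permutation p = 0.0286, adjusted p = 0.114). Without the 2 arrays of replicate 4, the change of Eif5a2 was 0.57 with an adjusted p of 0.0502.

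Eif5, which triggers GTP hydrolysis by eIF2 at the start codon, read 2875, 2806, 2753 and 2746 at 31.5 °C and 2191, 2484, 2330 and 2503 at 37 °C. The groups did not overlap, and the change of 0.24 ± 0.08 (SE) had an adjusted p of 0.0663, or 0.0479 with the block. Eif5b, the GTPase of subunit joining, had a change of 0.01. Eif6, which keeps free large subunits apart from small ones, read 1667, 1794, 1673 and 1411 at 31.5 °C against 1409, 1312, 1397 and 1310 at 37 °C. Its lowest cool array lay just above its highest warm array, and the change of 0.27 ± 0.09 (SE) had an adjusted p of 0.0836, or 0.0430 with the block.

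The probe sets of a gene often disagreed. Of the 139 probe sets 110 were bright enough to be tested, and 13 of them passed, 11.8% against 13.2% of all 22519 probe sets. With the replicate block 21 passed, 19.1% against 26.3% of all probe sets. Among those that passed only with the block were dimmer probe sets of Eif1ax (change 0.48, adjusted p = 0.0210), Eif2ak2 (0.36, adjusted p = 0.0328) and Eif3c. Of the 11 called without the block and with a single symbol, 5 were the brightest of their gene and 6 were not. Among the 28 genes with more than 1 tested probe set, 15 had probe sets on both sides of 0 and 8 had called and uncalled ones, with a median range of 0.243 between the probe sets of a gene.

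The 6 dimmer called probe sets add values that the brightest ones do not show. A probe set of Eif1a marked as shared between related transcripts was at 470 ± 26.8 against 328 ± 26.8 (change 0.52, adjusted p = 0.0087), where the brightest had -0.04. Probe sets of Eif5 (change 0.46, adjusted p = 0.0111), Eif6 (0.58, adjusted p = 0.0370), Eif2ak1 (0.37, adjusted p = 0.0293) and Eif4g2 (0.36, adjusted p = 0.0197) were higher at 31.5 °C. The probe set of Eif5b read 63.4, 65.4, 66.4 and 68.9 at 31.5 °C against 92.2, 99.2, 99.8 and 106 at 37 °C, without overlap (change -0.59, adjusted p = 0.0033), while the other 2 probe sets of Eif5b were at 0.01 and 0.03. Array probes sit at different places of a transcript, and which transcripts each of these probe sets reads was not tested.

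Probe sets with several symbols name no single gene. Of the 3 shared by Eif3j1 and Eif3j2, genes of a loosely bound eIF3 subunit, 1 was higher (327 ± 20.8 against 234 ± 41.4, change 0.50, adjusted p = 0.0378) and the others had -0.12 and -0.22 and did not pass. The probe set shared by Eif4a3 and Gm5576 was at 2351 ± 207 against 1825 ± 186 (change 0.37, adjusted p = 0.0497); Eif4a3 encodes a helicase of the exon junction complex rather than of initiation.

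**Figure D5:**
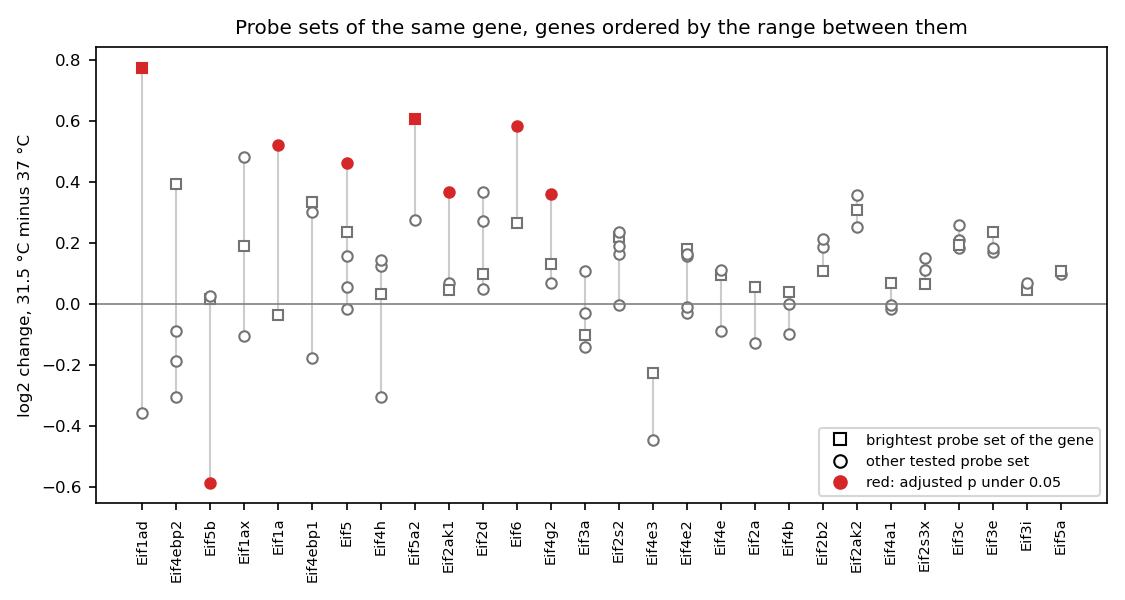
Log2 change (31.5 °C minus 37 °C) of each tested probe set for the 28 genes with more than 1, with squares for the brightest probe set of a gene, circles for the others and red for adjusted p under 0.05. Eif1ad has the widest range, from -0.36 to 0.77, and the red point of Eif5b lies at -0.59 below its other probe sets near 0.

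Other genes of the translation machinery gave few calls, from lists with 59 tested genes of which 8 passed. No elongation factor of 7 passed without the block. Eefsec, the elongation factor for selenocysteine, was at 147 ± 7.67 against 175 ± 18.3 (change -0.25, adjusted p = 0.110, or 0.0348 with the block), and Eef2k, the kinase of eEF2, had a change of 0.20 (adjusted p = 0.293). Of 6 termination and recycling genes 1 rose, Etf1, the factor that reads stop codons (1727 ± 97.0 against 1349 ± 41.0, change 0.35, adjusted p = 0.0170). With the block the release factor genes Gspt1 and Gspt2 were lower (changes -0.25 and -0.22, adjusted p = 0.0340 and 0.0386). Of 6 poly(A)-binding proteins and partners 1 fell, Paip2, an inhibitor of the poly(A)-binding protein (2564 ± 94.9 against 3175 ± 51.4, change -0.31, adjusted p = 0.0205).

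Of 12 other helpers of initiation 2 rose. Denr, part of a dimer that aids reinitiation, had a change of 0.35 (adjusted p = 0.0381), and Bzw1, an eIF5 mimic, had 0.38 (adjusted p = 0.0260). With the block Mtif2, a mitochondrial initiation factor, was lower (change -0.29, adjusted p = 0.0149). Of 15 genes of mTORC1 and MNK signalling, which controls eIF4E, 1 fell: a probe set of the ribosomal protein gene Rps6 was at 490 ± 78.5 against 753 ± 131 (change -0.62, adjusted p = 0.0367). Tsc1, a brake on mTORC1, was at 299 ± 33.3 against 374 ± 49.4 (change -0.32, adjusted p = 0.119, or 0.0176 with the block).

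Of 13 genes around eIF2 phosphorylation, namely regulators of the kinases, the phosphatase that reverses them and the ATF4 arm downstream, 1 rose and 2 fell. Trib3, an ATF4 target, had a change of 0.47 at a low signal (adjusted p = 0.0405), and Chac1, also an ATF4 target, had -0.48 (adjusted p = 0.0485). Nck1, an adaptor that can lower eIF2 phosphorylation, had -0.39 (adjusted p = 0.0184). Ppp1r15a, or GADD34, which brings the phosphatase to eIF2α, was at 548 ± 40.3 against 450 ± 30.4 (change 0.28, adjusted p = 0.0584, or 0.0368 with the block). The medians of the 6 lists lay between -0.05 and 0.05. The 8 genes that passed are 13.6% of the 59, against 15.4% of all genes tested. With the replicate block 14 of the 59 passed, against 30.8% of all genes, so neither count is above the background.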

How the data were processed

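The deposited table holds linear intensity values per probe set, which the authors computed with MAS5, per the submitters' processing notes; its version and scaling target are not given in the sources used here, and no detection calls were used. The deposited array levels differed (2% trimmed means from 132 to 248). Each array was scaled to the mean trimmed mean, values under the 25th percentile (9.80) were raised to it, and log2 was taken, which understates changes of dim genes. Of 45101 probe sets 64 controls were left out, and 34945 carried 1 symbol, 932 several and 9160 none in the platform annotation. The brightest probe set stood for each of 18193 genes, and 11525 genes at or above the median mean (36.3) were tested.

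The temperatures were compared with limma 3.58.1 in R 4.3.3 (lmFit and eBayes, temperature as the only term, two-sided) and Benjamini-Hochberg adjustment over all genes, at 0.05. Pairing by replicate number was checked from each array's deviations from its group mean: same-numbered arrays correlated at 0.541, 0.422, 0.497 and 0.614, other combinations at most at 0.0566. Precision is limited by the number of arrays. The fit without the block was tested on 10 simulated data sets with 200 changed genes each, fewer than were called here. It recovered 1.2%, 36.4%, 82.4% and 97% of log2 changes of 0.25, 0.5, 1 and 2, and 4.86% of its calls were false. A gene that did not pass is therefore not shown to be unchanged. Paralogue ratios were tested by exact permutation. Alternatives covered scaling, floor, filter, probe set choice, variance model, replicate block and arrays left out.

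The members and lists were chosen with earlier results of these data known. Named were all members that passed, a set list of kinases, binding proteins and paralogues, and up to 4 genes of smallest p per other list; further members were named after their values were seen. No coordinates beyond the RefSeq windows were used.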

Additional observations from a re-analysis of the deposited data

Results flagged for a closer look

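In 92 groups of 4 arrays (46 genes at each temperature), 6 groups, or 6.52%, held an array whose gap to its nearest neighbour exceeded the Dixon limit for its group's range; chance gives about 1 in 20. At 37 °C replicate 4 was the lowest for Eif2b3 (224) and Eif4a2 (4669) and the highest for Eif3f (4926). At 31.5 °C replicate 4 was the lowest for Eif3l (2336), replicate 3 the lowest for Eif1b (1983) and replicate 1 the highest for Eif2ak4 (153). The gap to the nearest array was 0.09 on the log2 scale for Eif1b, 0.18 for Eif2b3 and Eif4a2, 0.23 for Eif3f, 0.30 for Eif3l and 0.45 for Eif2ak4. The 37 °C array of replicate 4 also had the lowest deposited trimmed mean, 132.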

How the results depend on the processing

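Eif2b3 and Eif4a2 kept their calls in all settings except no scaling, Eif1ad except no scaling and the mean of probe sets, and Eif5a2 except no scaling and without both replicate 4 arrays. Eif3m lost its call in 12 of 24. Calls among all genes, factors higher and other list genes are named in that order below, where 1775, 4 and 8 were reported. With median scaling they were 725, 3 and 0 (454 of 725, or 62.6%, higher, against 49.6%), the factors' median was 0.21, and Eif1a, Eif2ak4, Eif2b4 and Eif2b5 turned to 0.052, 0.079, 0.085 and 0.048. With no scaling they were 227, 1 and 0, with 0 factors lower, a median of 0.20, and 0.044, 0.071, 0.077 and 0.040 for those 4 genes. No filter gave 8 factors higher and 5 list genes, the 70th percentile filter 7 factors higher, an intensity trend 9 and array weights 8 (Eif5b at -0.0105). The factors tested were 47, 43, 46 and 46 in that order, with 1 lower each time. Of all genes 8.28%, 19.9%, 16.9% and 18.1% were called. Every probe set singly gave 2788 calls, 9 higher, 2 lower and 16 in the lists. The replicate block, which pairs the arrays, gave 3548, 12 and 14.

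Signs also turned elsewhere, all for genes that had not passed without the block. Quantile normalization gave 0.029 for Eif2ak4 and -0.00095 for Eif5b. The mean of probe sets gave 1 list gene, 0.24 for Eif1a, -0.024 for Eif2a, -0.060 for Eif2ak1, 0.15 for Eif2ak4, -0.21 for Eif3l, -0.020 for Eif4b, -0.031 for Eif4ebp2 and -0.18 for Eif5b, with ratios of -0.0550 (Eif1ax to Eif1a) and -0.18 (Eif4ebp2 to Eif4ebp1). That mean also takes in probe sets too dim to be tested. Those of Eif3l were at 17.3 ± 5.10 against 20.5 ± 10.5 and 12.7 ± 16.5 against 22.6 ± 6.70, while its tested probe set had a change of 0.22. Without probe sets ending in _x_at or _s_at, Eif4h was at -0.30. With the block, 5, 7, 5 and 6 factors were higher without pair 1, 2, 3 and 4, against 12 with all pairs. Calls among all genes were 2060, 2113, 2299 and 2453 in the same order, against 3548 with all pairs. Without pair 2 under the block, Eif1a, Eif2ak4 and Eif3i were at 0.011, 0.085 and -0.0078. Without pair 3 under the block, Eif2ak1, Eif2ak4, Eif2b4 and Eif5b were at -0.0078, 0.051, 0.014 and -0.0585, and the ratio of Eif4ebp2 to Eif4ebp1 at -0.10. Without pair 4 under the block the median was 0.15 and Eif5b was at -0.0651. Without pair 4 and with no replicate block, chosen after seeing the data, 604 genes, 2 factors higher and 0 list genes were called, and Eif2ak1, Eif4b, Eif4enif1, Eif4h and Eif5b were at -0.036, -0.0046, -0.015, -0.0095 and -0.13.

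Leaving out each array in turn gave 871 to 1601 calls, 3 to 6 factors higher, 1 to 6 list genes and factor medians of 0.11 to 0.17. Ranges that crossed 0 were -0.079 to 0.020 for Eif1a, -0.13 to 0.046 for Eif2ak4, -0.017 to 0.025 for Eif2b4, -0.11 to 0.036 for Eif2b5, -0.039 to 0.084 for Eif5b and -0.056 to 0.14 for the ratio of Eif4ebp2 to Eif4ebp1. The lowest counts came without replicate 3 at 31.5 °C (871), replicate 2 at 31.5 °C (962), replicate 1 at 31.5 °C (998) and replicate 2 at 37 °C (1025). The cause of these shifts was not tested. With 4 arrays per temperature and no detection calls, small changes of dim probe sets are the least certain.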
